A study of Danio rerio with 8 samples.

Results

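The genes described here are 10 zebrafish genes that run mitosis: the kinases cdk1, plk1, aurka and aurkb, the cyclins ccna2, ccnb1 and ccnb2, the anaphase activator cdc20, the chromosomal passenger birc5a and the spindle motor kif11. They were picked by name for these roles, with earlier results of these data known. All 10 were measured, by 24 of the 39162 probes on the array, among 12792 genes that could be named.

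Whole embryos of the wild-type AB strain were injected at the 1-cell stage and collected at 24 hours post fertilization (hpf), and RNA of pools of 50 embryos was hybridised to one-colour arrays. The 2 MO-Ct arrays held embryos given 1.5 ng of a control morpholino with 0.25 ng of a control mimic, miR-Ct. The 3 MO-Tbx5a arrays held morphants given 1.5 ng of a morpholino against the start codon region of tbx5a, a transcription factor gene of heart and pectoral fin, with 0.25 ng of miR-Ct, and the 3 MO-Tbx5a+miR-19a arrays held morphants given 0.25 ng of miR-19a mimics in place of miR-Ct. Such a morpholino blocks translation and leaves the transcript in place, so the arrays hold no check of the depletion, and 0 probes were named tbx5a.

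Several facts about the arrays bear on every value below. The sample labels of the MO-Tbx5a+miR-19a arrays name MO-19a, whereas their titles and the design name the miR-19a mimic, and the design was followed. These 3 RNAs were labelled from 0.5 ug with another kit than the 200 ng used for the other groups, so kit and group cannot be told apart in any comparison with them. Of the 3 deposited scans of this group, none tracked its own column of the value table best over all probes. The rank correlation with the own column was 0.934 to 0.937, whereas all 3 scans followed the second MO-Ct column most closely, at 0.942 to 0.950. The MO-Ct columns correlated with each other at 0.994. Over the 24 probes described here, each scan was closest to a MO-Tbx5a+miR-19a column, at 0.971 to 0.987, but again not to its own. With the MO-Ct columns these 24 probes gave 0.963 to 0.987. The intensities and flags of the scans were therefore used for detection only, while their accessions served to name the probes. The comparison of MO-Tbx5a with MO-Ct is given with and without the MO-Tbx5a+miR-19a columns.

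Entry into mitosis is driven by cyclin-dependent kinase 1, the product of cdk1, bound to B-type cyclins, and Polo-like and Aurora kinases build the spindle and the kinetochore attachments. Exit begins when the anaphase promoting complex, activated by Cdc20, marks cyclin B and securin for destruction. Transcripts of most of these genes peak in G2 and M phase, so that in whole tissue they serve as a readout of dividing cells. Zebrafish embryos at this stage still divide in the brain, the somites and the fin buds.

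Values are log2 intensities normalised between arrays, and differences between them are log2 changes. A probe was called when its fold change was above 1.3 (0.379 on the log2 scale) with a p and a Benjamini-Hochberg adjusted p from limma under 0.05, adjusted over all 39162 probes. Where a gene had several probes, the one with the highest mean over the 8 arrays stood for it, and the others are given as well. In whole embryos fewer dividing cells and less transcript per cell cannot be told apart, and since no label says that replicates came from separate clutches, p-values measure only the spread between these arrays.

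Depletion of tbx5a lowered 6 of the 10 genes by their brightest probes and raised 0. The 6 were cdk1, kif11, plk1, aurka, birc5a and ccnb1, with changes from -1.09 to -0.41, but the 2 other aurka probes were called higher. Among the brightest probes, the only other with an unadjusted p under 0.05 in limma was that of ccnb2, which changed by 0.33. Over all named genes 20.6% were called lower and 16.5% higher by the brightest probe. The median change of the 10 genes was -0.46, against -0.03 for all named genes. At the level of probes, 13 of 24 were called lower and 2 higher, where 38.4% of all probes were called in either direction, 19.6% lower and 18.7% higher. Probes of 1 gene are not independent, and ccnb1 alone gave 6 of the 13. Without the MO-Tbx5a+miR-19a columns in the fit, the same 15 probes were called. Without the first MO-Ct array 4 probes were called higher, the added ones being the second of ccna2 and the third of cdc20, and 11 probes and 4 genes were called lower. Without the second MO-Ct array the brightest ccnb2 probe was called higher, and 11 probes and 5 genes were called lower. The background moved too: 15030 of all probes were called in the main fit, 12021 without the first MO-Ct array and 10143 without the second.

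With the miR-19a mimic, 6 of the 10 genes were higher by their brightest probes in MO-Tbx5a+miR-19a than in MO-Tbx5a embryos and 0 were lower. These were cdk1, birc5a, kif11, plk1, aurka and cdc20, with changes from 0.60 to 1.32, but the 2 other aurka probes were called lower. Of the brightest probes, those of ccnb1 (0.35) and aurkb (0.24) also had an unadjusted p under 0.05 in limma, both upward, and 0 passed downward. The background of all named genes was 21.0% higher and 20.3% lower. The median change was 0.61 for the 10 genes and 0.01 for all named genes. Of the 24 probes, 12 were called higher and 2 lower, where 42.2% of all probes were called, 20.2% higher and 21.9% lower. Of the 12, 4 were probes of ccnb1. Both comparisons use the same MO-Tbx5a arrays, so an unusual MO-Tbx5a value would move them in opposite directions at once.

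**Figure D1:**
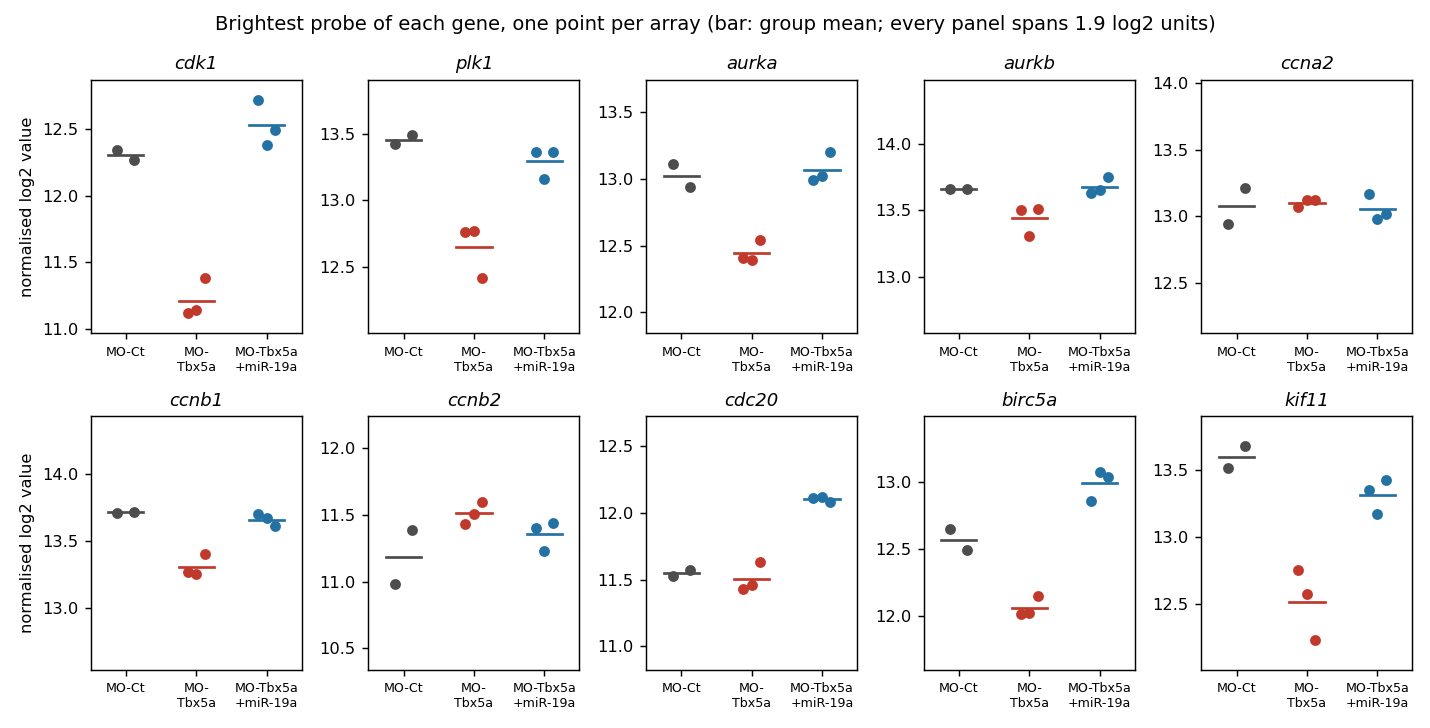
Normalised log2 value of the brightest probe of each of the 10 genes (vertical axis, 1 point per array, bar at the group mean), with the 3 groups along the horizontal axis. For cdk1, plk1, aurka, ccnb1, birc5a and kif11 all 3 MO-Tbx5a points lie below every point of the other groups. The same holds for aurkb, which was not called. Such separation was not counted over all probes. For ccna2 the groups overlap.

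The catalytic subunit cdk1 (NM_212564) had a single probe. It read 12.34 and 12.27 on the MO-Ct arrays, 11.12, 11.14 and 11.38 on the MO-Tbx5a arrays, and 12.72, 12.38 and 12.49 on the MO-Tbx5a+miR-19a arrays. Every MO-Tbx5a array was lower than every array of both other groups. With depletion cdk1 fell by 1.09 ± 0.14 (SE; 2.13-fold, adjusted p = 8.19e-05). It was 1.32 ± 0.12 higher with the mimic than without it (2.49-fold, adjusted p = 5.54e-06), the largest rise of a brightest probe among the 10 genes.

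The Polo-like kinase gene plk1 (NM_001003890) acts at centrosome maturation and spindle assembly. Its brightest probe read 13.42 and 13.49 in MO-Ct, 12.76, 12.77 and 12.42 in MO-Tbx5a, and 13.36, 13.16 and 13.36 in MO-Tbx5a+miR-19a embryos. The MO-Tbx5a arrays again lay below all others. The fall was 0.81 ± 0.14 (adjusted p = 6.38e-04) and the rise with the mimic 0.64 ± 0.12 (adjusted p = 9.32e-04). A second, dim plk1 probe ranged from 7.12 to 7.77 over the 8 arrays, with all groups overlapping, and its changes of -0.04 and 0.00 were not called.

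The Aurora A kinase gene aurka (NM_001003640), which works at spindle poles, was read by 3 probes that moved in opposite directions. The brightest read 13.11 and 12.94 in MO-Ct, 12.41, 12.39 and 12.54 in MO-Tbx5a, and 12.99, 13.02 and 13.20 in MO-Tbx5a+miR-19a embryos. By this probe aurka fell by 0.58 ± 0.12 with depletion (adjusted p = 0.00269) and was 0.62 ± 0.11 higher with the mimic (adjusted p = 5.49e-04). The second probe read 8.76 and 8.46, then 9.51, 9.43 and 9.33, then 8.38, 8.74 and 8.51 in the same order of groups. On that probe the MO-Tbx5a arrays were the highest, by 0.81 ± 0.14 over MO-Ct (adjusted p = 7.41e-04), and the mimic group was below them, with a change of -0.88 ± 0.13 (adjusted p = 1.27e-04). The third probe, at 8.36 and 8.41, then 9.27, 9.19 and 9.01, then 8.08, 8.14 and 8.16, did the same, with changes of 0.77 ± 0.12 (adjusted p = 3.36e-04) and -1.03 ± 0.11 (adjusted p = 1.19e-05). All 3 aurka probes carry the same RefSeq accession and all were well above background on the 3 scans, so these arrays give no single direction for aurka.

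Aurora B kinase, encoded by aurkb (NM_212566), is the catalytic part of the chromosomal passenger complex, which corrects wrong kinetochore attachments. Its only probe read 13.66 on both MO-Ct arrays, 13.50, 13.31 and 13.51 on the MO-Tbx5a arrays, and 13.63, 13.65 and 13.75 on the MO-Tbx5a+miR-19a arrays. The MO-Tbx5a arrays did not overlap with either group, but the change of -0.22 ± 0.12 with depletion (adjusted p = 0.158) and that of 0.24 ± 0.11 with the mimic (adjusted p = 0.0813) passed neither the fold nor the adjusted p. Its partner birc5a (NM_194397), the survivin subunit of the same complex, read 12.65 and 12.49 in MO-Ct, 12.01, 12.02 and 12.15 in MO-Tbx5a, and 12.86, 13.08 and 13.04 in MO-Tbx5a+miR-19a embryos. The 3 groups did not overlap. It fell by 0.51 ± 0.12 with depletion (adjusted p = 0.00567), a call lost without the first MO-Ct array (-0.43, adjusted p = 0.0601). With the mimic birc5a was 0.93 ± 0.11 higher (1.91-fold, adjusted p = 2.88e-05). A dim second birc5a probe, between 6.65 and 7.13 on all arrays, was not called, with changes of 0.23 and -0.26.

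Among the cyclins, ccnb1 (NM_131513), whose product brings Cdk1 to full activity in mitosis, gave the most evenly directed result. It was read by 6 probes, and all 6 were lower in MO-Tbx5a than in MO-Ct embryos, with called changes from -0.99 to -0.41. The second probe read 12.49 and 12.63 in MO-Ct, 11.52, 11.60 and 11.58 in MO-Tbx5a, and 12.85, 12.52 and 12.64 in MO-Tbx5a+miR-19a embryos. On it ccnb1 fell by 0.99 ± 0.13 (1.99-fold, adjusted p = 9.60e-05) and was 1.103 ± 0.11 higher with the mimic (2.15-fold, adjusted p = 1.14e-05). The brightest ccnb1 probe read 13.71 and 13.72, then 13.27, 13.25 and 13.40, then 13.70, 13.67 and 13.61, with a smaller fall of 0.41 ± 0.11 (adjusted p = 0.0123). That call was lost without either MO-Ct array and under quantile or cyclic loess normalisation, and the change ranged from -0.455 to -0.32 over the 15 alternatives tried. On the fifth probe, whose change was -0.49, the call was lost without the second MO-Ct array. All 6 probes were higher with the mimic than without it, by 0.30 to 1.103, and 4 were called, whereas the changes of the brightest (0.35, 1.28-fold) and of the fifth (0.30, 1.23-fold) stayed under the fold required.

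The other B-type cyclin, ccnb2 (NM_199430), gave another picture. Its brightest probe read 10.98 and 11.39 in MO-Ct, 11.43, 11.51 and 11.60 in MO-Tbx5a, and 11.40, 11.23 and 11.44 in MO-Tbx5a+miR-19a embryos. The MO-Ct arrays stood further apart on it than the change of 0.33 ± 0.14 with depletion (adjusted p = 0.0814) or that of -0.16 ± 0.13 with the mimic (adjusted p = 0.328). The second ccnb2 probe read 8.48 and 8.19, then 7.61, 7.68 and 7.62, then 8.14, 7.95 and 8.32, with the MO-Tbx5a arrays below all others. It was called lower with depletion, by -0.70 ± 0.14 (adjusted p = 0.00171), and higher with the mimic, by 0.50 ± 0.12 (adjusted p = 0.00510).

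Cyclin A is used in S phase and again at entry into mitosis, and its gene ccna2 (NM_152949) was called on none of its 3 probes in any comparison. The brightest read 12.94 and 13.21 in MO-Ct, 13.07, 13.12 and 13.12 in MO-Tbx5a, and 13.17, 12.98 and 13.02 in MO-Tbx5a+miR-19a embryos. Both MO-Ct arrays lay outside the range of the MO-Tbx5a arrays, 1 on each side. The changes were 0.03 ± 0.12 with depletion (adjusted p = 0.880) and -0.05 ± 0.11 with the mimic (adjusted p = 0.756). Its other probes changed by 0.37 and -0.33 with depletion and by 0.01 and 0.28 with the mimic. With depletion the second probe (1.29-fold, adjusted p = 0.0396) missed only the fold required, and the third had an adjusted p of 0.102.

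The activator of the anaphase promoting complex, cdc20 (NM_213080), had the largest single change of the 24 probes. Its second probe read 11.04 and 10.96 in MO-Ct, 9.49, 9.46 and 9.39 in MO-Tbx5a, and 11.16, 11.06 and 11.21 in MO-Tbx5a+miR-19a embryos. The gap between the MO-Tbx5a arrays and all others was far wider than the spread within any group. On this probe cdc20 fell by 1.55 ± 0.11 with depletion (2.93-fold, adjusted p = 4.54e-06) and was 1.70 ± 0.10 higher with the mimic (3.24-fold, adjusted p = 5.59e-07). The brightest cdc20 probe did not follow it: at 11.53 and 11.57, then 11.43, 11.46 and 11.63, its change of -0.04 ± 0.12 with depletion was not called (adjusted p = 0.797). With the mimic that probe read 12.11, 12.12 and 12.08, a rise of 0.60 ± 0.10 (adjusted p = 4.67e-04). The third cdc20 probe, at 10.41 and 10.11, then 10.52, 10.53 and 10.62, then 10.26, 10.36 and 10.45, was not called, with changes of 0.30 and -0.20.

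The motor kif11 (NM_173261), a kinesin of the Eg5 type that slides spindle microtubules apart, had 1 probe. It read 13.52 and 13.68 in MO-Ct, 12.75, 12.57 and 12.23 in MO-Tbx5a, and 13.35, 13.17 and 13.43 in MO-Tbx5a+miR-19a embryos. The MO-Tbx5a arrays were the lowest and had the widest spread of the 3 groups. With depletion kif11 fell by 1.08 ± 0.16 (2.12-fold, adjusted p = 2.00e-04), close to the fall of cdk1, and it was 0.80 ± 0.14 higher with the mimic (1.74-fold, adjusted p = 4.80e-04).

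**Figure D2:**
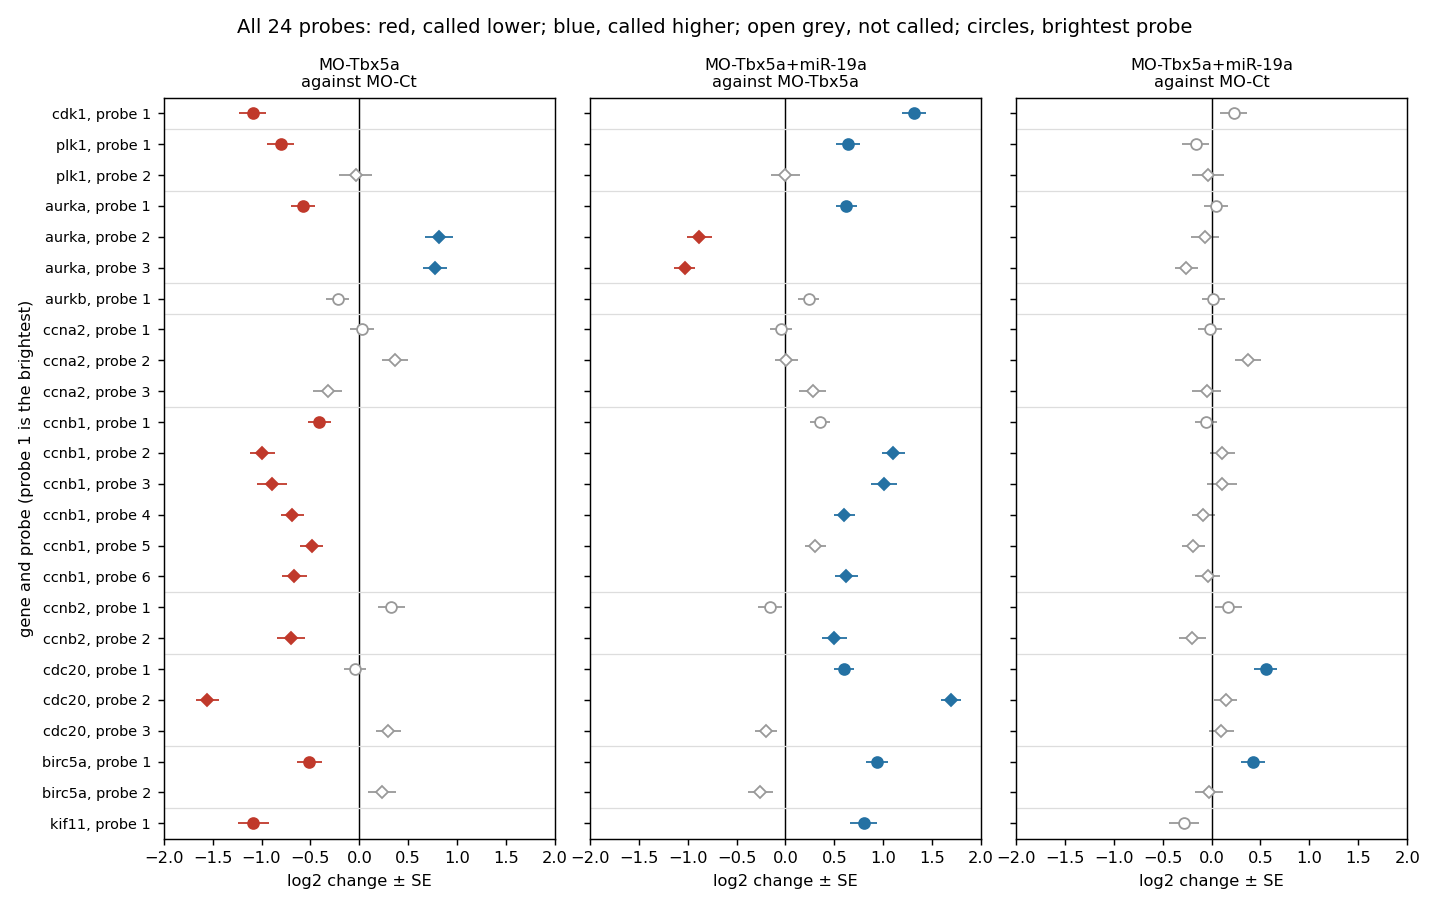
Log2 change ± SE (horizontal axis) of each of the 24 probes, grouped by gene (vertical axis), in the 3 comparisons. Red marks are probes called lower, blue marks probes called higher and open grey marks probes not called. The 6 ccnb1 probes all lie left of 0 with depletion and right of 0 with the mimic, whereas the aurka probes lie on both sides.

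When the mimic group was set directly against MO-Ct embryos, 2 of the 10 genes were called by their brightest probes, both higher, and 0 lower. No other brightest probe of the 10 had an unadjusted p under 0.05 in limma. The second ccna2 probe did, with a change of 0.37 ± 0.13 (SE, adjusted p = 0.0867), and was not called. Over all named genes 5.52% were higher and 6.62% lower, and over all probes 11.2% were called, 5.24% higher and 5.95% lower. The median change of the 10 genes was 0.03. The brightest cdc20 probe was 0.55 ± 0.12 higher (1.47-fold, adjusted p = 0.0110), with its 3 mimic arrays above all others, while the other cdc20 probes differed by 0.14 and 0.10 and were not called. The brightest birc5a probe was 0.42 ± 0.12 higher (1.34-fold, adjusted p = 0.0452). Without the first MO-Ct array neither was called (adjusted p = 0.0759 for cdc20 and 0.0986 for birc5a), and without the second neither was (adjusted p = 0.0760 and 0.288). The birc5a call was lost in 8 of the 15 alternatives. The background moved as well: 4384 of all probes were called in this comparison, 1525 without the first MO-Ct array, 1042 without the second, and 2387 and 2875 without the first and the third mimic array.

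The other 8 genes were not called against MO-Ct, which does not show that they were equal. The change of cdk1 was 0.23 ± 0.14 (adjusted p = 0.316), with its 3 mimic arrays just above both MO-Ct arrays, and that of kif11 was -0.28 ± 0.16 (adjusted p = 0.266), with its mimic arrays below them. The 6 ccnb1 probes differed from MO-Ct by -0.19 to 0.11. For aurka the brightest probe differed by 0.05 ± 0.12 and the third by -0.26 ± 0.12 (adjusted p = 0.188).

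The disagreement between probes was examined over the 7 genes that had several. With depletion, aurka was the only one called in both directions, and ccnb1 the only one with all probes called the same way. Among all named genes with at least 2 called probes, 28.4% had calls in both directions with depletion. The share was 28.2% with the mimic and 7.55% in the mimic group against MO-Ct. By the same measure, 2 of the genes described here had at least 2 called probes with depletion, and 1, aurka, went both ways. With the mimic it was 1 of 3, again aurka, and against MO-Ct 0 genes had 2 called probes. Such small counts cannot show whether these genes disagreed more or less often than others. The 14 probes that were not the brightest of their gene were called lower in 7 cases and higher in 2 with depletion, with a median change of -0.41. All 11924 such probes of named genes had a median of -0.06, with 3217 lower and 2014 higher. With the mimic the 14 probes were called higher in 6 cases and lower in 2, median 0.29. Of the 11924, 3306 were higher and 2392 lower, with a median of 0.05. Probes of 1 gene were counted singly here, and most of the 7 lower calls came from ccnb1, as did 4 of the 6 higher calls with the mimic. The other calls with depletion went both ways, with 2 aurka probes higher and 1 probe each of ccnb2 and cdc20 lower. With the mimic these probes were called in the reverse directions. These counts and medians therefore do not show how genes other than ccnb1 moved. The position of each probe within its transcript was not used here, and cross-hybridisation was not tested.

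**Figure D3:**
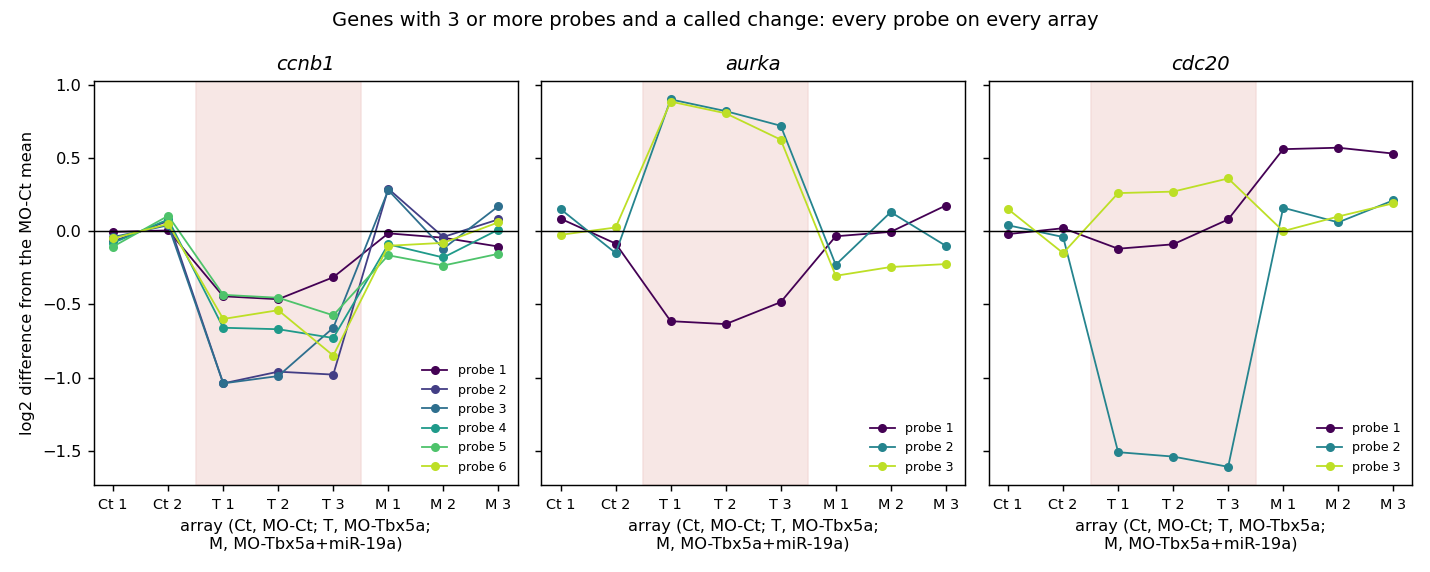
Log2 difference of each array from the MO-Ct mean of the same probe (vertical axis) for every probe of ccnb1, aurka and cdc20, over the 8 arrays (horizontal axis, MO-Tbx5a arrays shaded; lines only join the values of a probe). The ccnb1 probes dip together in the shaded arrays, 2 of the 3 aurka probes rise there while the brightest dips, and a single cdc20 probe drops by 1.55.

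The 10 genes did not share a single profile over the arrays. The Pearson correlation of each with the mean of the other 9, over the 8 arrays and by brightest probe, was 0.98 for cdk1, 0.95 for aurka, 0.92 for ccnb1, 0.90 for birc5a, 0.87 for aurkb, 0.86 for plk1 and 0.82 for kif11. It was 0.68 for cdc20, -0.18 for ccna2 and -0.53 for ccnb2. These values describe only 8 arrays, and the arrays of a group share their treatment. Over the 4711 other named genes with an SD of at least 0.3, the 5 closest to the mean profile of the 10 were ctsz, smu1a, smyd1b, psma2b and myl4, with r from 0.996 to 0.998. None of these 5 is on the cell cycle lists used below, and smyd1b and myl4 are genes of muscle.

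A wider set of 120 cell cycle genes other than these 10 was listed by role, and 100 were measured. With depletion 30 were called lower and 10 higher by the brightest probe, and with the mimic 33 higher and 18 lower, with medians of -0.14 and 0.17. Against MO-Ct the mimic group had 5 higher and 3 lower. The shares over all named genes were 20.6% lower and 16.5% higher with depletion, and 21.0% higher and 20.3% lower with the mimic. Against MO-Ct they were 5.52% higher and 6.62% lower. The 10 higher with depletion, the 18 lower with the mimic and both counts against MO-Ct did not exceed these shares. Counts of the single lists below stand beside the same shares, and most of these lists are short.

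The mitotic entry list holds activators and inhibitors of Cdk1 and also other genes, such as foxm1 and lin54, and 17 were measured. With depletion 8 were lower and 0 higher (median -0.14), and with the mimic 7 were higher and 2 lower (median 0.13). Of the genes of kinases that inhibit Cdk1, wee2 (0.01) and pkmyt1 (0.02) were not called with depletion, and wee1, also listed, is not described here. Those lower included ensaa (-1.44) and mastl (-1.21), a substrate and its Greatwall kinase that restrain the phosphatase opposing Cdk1. They also included cks2 (-1.13), a small Cdk1-binding protein, and ccnb3 (-0.83). With the mimic ensaa (1.47), cks2 (1.5), mastl (0.90) and ccnb3 (0.70) were called higher.

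Of 14 spindle checkpoint and kinetochore genes, 5 were lower and 0 higher with depletion (median -0.33), and 5 were higher and 0 lower with the mimic (median 0.24). The checkpoint gene mad2l1, whose product holds Cdc20 inactive until chromosomes are attached, had the largest fall of the 100. Its mean was 12.37 ± 0.06 (SD, n = 2) in MO-Ct and 10.39 ± 0.14 (SD, n = 3) in MO-Tbx5a embryos, and the log2 change was -1.98 ± 0.13 (SE, adjusted p = 3.26e-06). It stood at 12.41 ± 0.15 (SD, n = 3) in the mimic group, 2.02 ± 0.12 (SE) above MO-Tbx5a (adjusted p = 5.17e-07). Of 21 spindle motors and microtubule proteins, 6 were lower and 0 higher with depletion (median -0.23), and 9 were higher and 3 lower with the mimic (median 0.33).

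Calls went both ways in the remaining lists. Of 14 genes of the anaphase promoting complex and separase, 3 were lower and 1 higher with depletion (median 0.04), and 3 moved each way with the mimic (median -0.03). Of 11 condensin and chromatin genes, 4 were lower and 3 higher with depletion (median -0.04), and 3 moved each way with the mimic (median -0.04). Among them smc2, a condensin core subunit, fell by 1.56 ± 0.13 (SE, adjusted p = 7.57e-06) on its brightest probe, while its 3 other probes were called higher. With the mimic the brightest smc2 probe was 1.49 ± 0.12 higher (SE, adjusted p = 1.85e-06) and the 3 others were called lower. Another condensin gene, ncapg, was lower with the mimic, by -0.91 ± 0.13 (SE, adjusted p = 9.30e-05) on 1 of its 2 probes. Of 6 cytokinesis genes 2 were lower, ect2 (-1.24) and racgap1 (-0.82), and 1 was higher, aspm, a spindle pole gene, by 1.15 ± 0.14 (SE, adjusted p = 6.75e-05). The aspm rise was seen on 2 of its 7 probes. With the mimic 3 of the 6 cytokinesis genes were higher and 1 lower (median 0.21). The gene called lower was aspm, by -1.24 ± 0.12 (SE, adjusted p = 9.15e-06). Of 4 other passenger and shugoshin genes 1 was lower and 1 higher, sgo2, by 0.86 on its brightest probe but lower on its second.

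The list of G1 and S phase cyclins, kinases and Cdk inhibitors went the other way in count. Of 13, 4 were higher, 1 lower and 8 not called with depletion (median 0.04), and 2 were higher and 5 lower with the mimic (median -0.15). The G1 kinase gene cdk6 (0.90), the Cdk inhibitor gene cdkn1bb (0.69) and the D-type cyclins ccnd2a (0.58) and ccnd1 (0.47) were higher with depletion, and ccne2 (-0.76), a cyclin of S phase entry, was lower. With the mimic ccnd2a was lower by -0.93 ± 0.12 (SE, adjusted p = 6.15e-05), and cdk6 (-0.79) and cdkn1bb (-0.79) were lower too. Against MO-Ct the mimic group was higher for cdc25b, a Cdk1-activating phosphatase, by 0.66, for the Cdk inhibitor cdkn1ca by 0.65 and for the spindle protein gene dlgap5 by 0.50. It was lower for stmn1b (-0.71), cdc25d (-0.60) and fbxo5 (-0.44). The calls of cdc25b, cdc25d and fbxo5 each rested on 1 of 3 probes, and that of dlgap5 on 1 of 2. The called cdc25d probe was dim, with group means from 6.17 to 6.87. Of the 100 genes 5 were called higher and 3 lower in this comparison, beside 5.52% and 6.62% of all named genes. These calls are given for the main fit only.

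**Figure D4:**
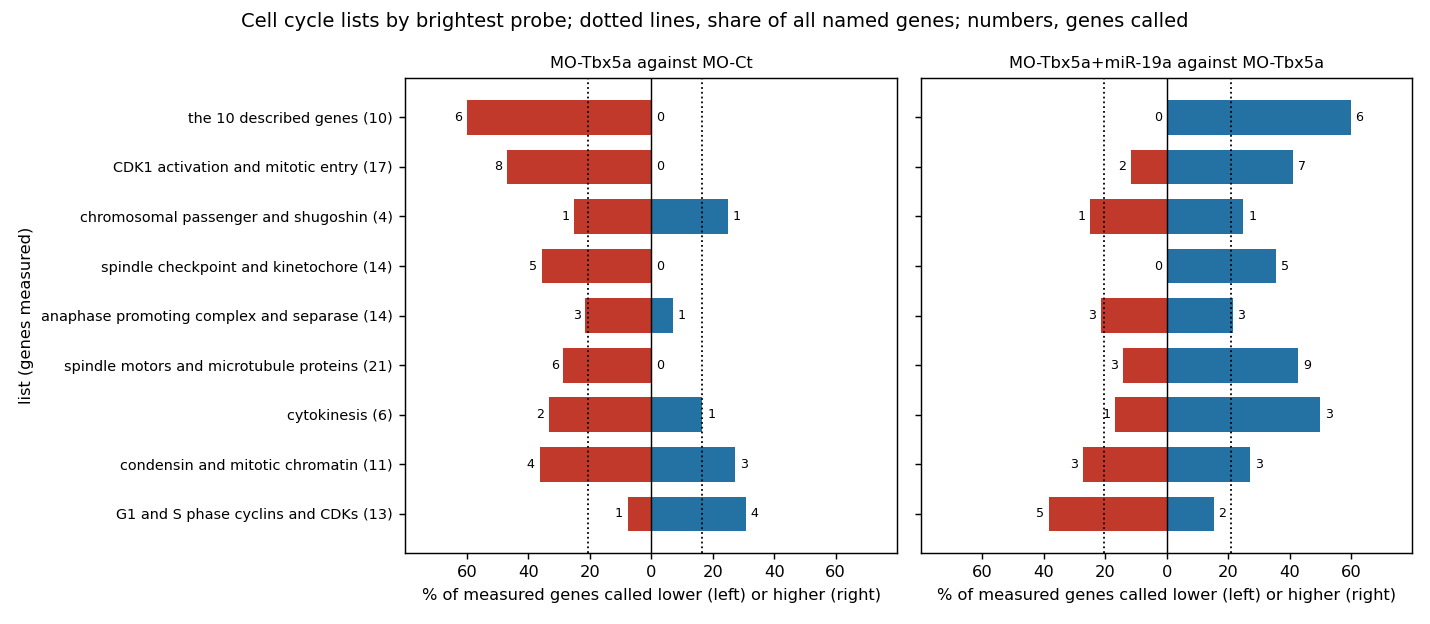
Share of measured genes called lower (left of 0) or higher (right of 0) by the brightest probe, in percent (horizontal axis), for the 10 genes and 8 other cell cycle lists (vertical axis, number measured in brackets), with depletion and with the mimic. Dotted lines give the share over all named genes, 20.6% lower and 16.5% higher with depletion. With depletion the 10 genes and the mitotic entry, spindle checkpoint and spindle motor lists extend only left. The G1 and S phase list extends further right than left.

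Markers of other tissues moved with the same groups, and their part in the results above was not tested. Their counts stand beside shares over all named genes of 20.6% lower and 16.5% higher with depletion. With the mimic these shares were 21.0% higher and 20.3% lower. Of 10 skeletal muscle markers, 6 were lower and 0 higher with depletion, and 6 were higher and 1 lower with the mimic. The mean level of that list, centred on each gene's mean, ranged over the arrays from 0.23 to 0.31 in MO-Ct, from -0.41 to -0.16 in MO-Tbx5a and from 0.04 to 0.32 in MO-Tbx5a+miR-19a embryos. The same mean over the 10 mitotic genes ran from 0.10 to 0.16, from -0.33 to -0.29 and from 0.16 to 0.26. Of 7 pigment cell markers 4 were lower and 1 higher with depletion, and their mean ran from 0.14 to 0.21, from -0.33 to -0.28 and from 0.01 to 0.40.

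Lens markers were lower in both morphant groups: 5 of 9 with depletion and 9 of 9 in the mimic group against MO-Ct. Of 9 neuronal markers 3 were higher and 1 lower with depletion, and of 8 neural progenitor markers 1 was higher and 2 were lower. The shares over all named genes were 20.6% lower and 16.5% higher with depletion, and 6.62% lower against MO-Ct. By the brightest probe every measured marker of muscle (10), lens (9), blood (8), neural progenitors (8), neurons (9) and pigment cells (7) was well above background on the 3 scans, as were the 6 of germ line and the 6 of yolk, so these flags did not separate the lists.

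All 24 probes were well above background on the 3 scans of the mimic group and 0 were saturated, with processed intensities from 51.3 to 16024. In the value table the 24 probes ranged from 6.65 to 13.75. The number of arrays, 2 or 3 per group, limits the precision.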

How the data were processed

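Total RNA of 8 pools of embryos was profiled on one-colour Agilent 4x44K arrays. Per the study's methods, the authors corrected median signals with normexp and an offset and normalised them between arrays by cyclic loess. The methods name fewer probes for that normalisation than the 39162 whose log2 values were deposited. The deposited scans of the 3 MO-Tbx5a+miR-19a arrays hold intensity values processed by Agilent Feature Extraction (10.7.3.1 per the file headers, 9.1 per the labels; 10.7 for the other groups). Their flags, deposited as other per-spot columns, were used for detection. Probes were named through the RefSeq accessions of the scans, which matched a symbol for 24716 probes (63.1%).

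A mean per group was fitted to the log2 values with limma 3.58.1 in R 4.3.3, over 8 arrays with 5 residual degrees of freedom per probe, and p-values were adjusted over all probes. The fit was tested on simulated data with independent noise and far fewer changed probes than were called here, so that test does not vouch for these calls. The members and lists were chosen with earlier results of these data known. All 10 genes and probes are named, and of the other mitosis genes the 3 largest called rises and falls of each comparison whose groups do not overlap; the other genes given with a change were chosen after their values were seen. Markers of yolk, blood and germ line were listed as well: with depletion 2 of 6, 3 of 8 and 2 of 6 were lower and 0, 1 and 1 higher. Over all named genes 20.6% were lower and 16.5% higher. Alternatives were other normalisations, moderation, fold, filter, probe summary, samples and a replicate block. The other normalisations were second passes over the deposited values, which were already normalised between arrays, so they do not test normalisation of the raw signals. One of the marker lists is not reported here.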

Additional observations from a re-analysis of the deposited data

How the results depend on the processing

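Under 15 alternatives that kept the fold threshold, 12 of the 15 probes called with depletion and 14 of the 14 called with the mimic kept their call and direction in each, 3 with depletion lost it in some (birc5a and 2 of ccnb1), and both called against MO-Ct lost it in some. Uncalled probes gained a call in at least 1 alternative for 3 with depletion and 2 with the mimic. With a fold change above 2 the probe counts fell to 0 higher and 3 lower with depletion (2 genes lower), 4 higher and 1 lower with the mimic (1 gene higher), and 0 probes and 0 genes higher against MO-Ct. The counts over all 39162 probes fell as well. They went from 15030 to 2892 with depletion, from 16512 to 3293 with the mimic and from 4384 to 513 against MO-Ct. Deviations of same-numbered arrays from their group means correlated between -0.222 and 0.178. The deviations of the 2 MO-Ct arrays mirror each other by construction, so these values cannot settle whether replicate numbers pair the samples. As a paired fit the replicate block left 13 probes lower with depletion and 12 higher with the mimic (14159 and 16469 of all probes called). Against MO-Ct it left 1 probe and 1 gene higher (2162 of all probes called), with aurka at -0.0108 and aurkb at -0.0192 there. Fitting only the groups compared also left 1 probe and 1 gene (4428 of all probes called).

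With the mean of all probes of a gene the medians were -0.32 and 0.33. With depletion 5 genes were then lower: birc5a (-0.14, adjusted p = 0.332) and aurka lost their call and cdc20 (-0.43) gained one. With the mimic 4 genes were higher and 1, aurka, lower: plk1 (0.32, adjusted p = 0.0618) and birc5a (0.34, under the fold) lost their call and ccnb1 (0.665) gained one. Against MO-Ct 0 were higher. The changes by that summary in the order of the 3 comparisons were 0.34, -0.43 and -0.0933 for aurka, and -0.185, 0.17 and -0.0133 for ccnb2, and ccna2 changed by 0.0789 with the mimic and 0.10 against MO-Ct. Against MO-Ct ccna2 was 0.0211 with cyclic loess and 0.01 with 75th percentile centring. Leaving out 1 array, with depletion probes higher ran from 2 to 4, probes lower from 11 to 13, genes higher from 0 to 1, genes lower from 4 to 6, and ccna2 from -0.11 to 0.16. Calls over all probes with depletion ran from 10143 to 15115. Against MO-Ct probes and genes higher then ran from 0 to 2, aurka from -0.04 to 0.13, aurkb from -0.02 to 0.04, ccna2 from -0.15 to 0.12 and ccnb2 from -0.0333 to 0.38. Removing probes under a mean of 6 removed none of the 24. Naming probes through the accession alone was not run, since the scans hold no gene names and the naming already is that.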
